A study of Mus musculus with 6 samples.

Results

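The NRF2 antioxidant genes described here are 10 genes taken by symbol from a table of 25124 genes: Nfe2l2, Keap1, Nqo1, Gclm, Gclc, Txnrd1, Srxn1, Prdx1, Slc7a11 and Sqstm1. All 10 were found, and all 10 passed the filter on low values that left 11235 genes in the test. They were measured by polyadenylated RNA sequencing in bone marrow-derived macrophages of wild-type C57BL/6 mice aged 8 weeks, cells grown from marrow for 7 days in 20 ng/ml M-CSF, the growth factor that turns marrow precursors into macrophages. The 3 M0 libraries came from cells kept in 20 ng/ml M-CSF alone. The 3 M2 libraries came from cells that received 10 ng/ml IL-4, the cytokine of alternative activation, on top of the same M-CSF, and RNA was taken 4 hours later. Both groups are therefore M-CSF cultures, and nothing in the labels says whether replicates were separate mice or cultures, so the p-values below measure the spread between these libraries.

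NRF2, the product of Nfe2l2, is a transcription factor that binds antioxidant response elements in DNA together with a small MAF protein. KEAP1 holds it in the cytoplasm and presents it to a CUL3 ubiquitin ligase for destruction until oxidants or electrophiles modify KEAP1, and BACH1 competes for the same DNA elements. Its best known targets make glutathione, recycle thioredoxin and peroxiredoxin and reduce quinones. Most of this control acts on the NRF2 protein, which RNA sequencing does not measure.

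Of the 10 genes, 8 fell in M2, 1 rose and 1 did not pass. Over all tested genes 45.3% fell and 17.7% rose at the same threshold (Benjamini-Hochberg adjusted p under 0.05, limma-trend). The glutathione enzyme subunits Gclm and Gclc, the thioredoxin reductase Txnrd1, the peroxiredoxin pair Prdx1 and Srxn1, and the autophagy receptor Sqstm1 had mean levels 1.43-fold to 1.80-fold lower in M2. Slc7a11, which encodes the cystine importer that feeds glutathione synthesis, was 1.97-fold higher in M2. Nfe2l2 and Keap1 moved less, by 1.16-fold and 1.19-fold lower in M2, and Nqo1 missed the threshold.

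The deposited levels were TPM, a transcript abundance scaled for transcript length and for depth. Part of the shift was common to the whole table: the median log2 fold change of all tested genes was -0.15 with the deposited TPM. When each library was divided by its median ratio to the others, that median became 0.0029. The log2 fold changes below move up by about the same amount, and by less for genes at low TPM such as Sod3 (0.86 to 0.94). After that scaling 6 of the 10 fell, 2 rose and 2 did not pass, while 28.2% of all tested genes fell and 28.8% rose. The 6 that fell under both scalings were Gclm, Gclc, Txnrd1, Srxn1, Prdx1 and Sqstm1, Slc7a11 rose under both, and the calls of Nfe2l2, Keap1 and Nqo1 depended on the scaling.

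The libraries held 16913185 to 19019896 reads in genes. Arg1, Retnla, Chil3 and Mrc1, genes of the IL-4 response, each stood higher in the 3 M2 libraries than in the 3 M0 libraries. The 7 macrophage markers summed to 16237 to 17391 TPM in M0 and 15125 to 15500 TPM in M2 (Adgre1, Csf1r, Cd68, Itgam, Lyz2, Mertk and Fcgr1; 3 rose, 3 fell, 1 missed the threshold). Lyz2 gave most of that macrophage sum, with means of 13744 TPM in M0 and 12051 TPM in M2. After median scaling Adgre1, Csf1r, Cd68 and Mertk rose, Fcgr1 fell, and Itgam and Lyz2 did not pass. The 7 neutrophil markers summed to 29.7 to 37.5 and 27.6 to 34.7 TPM, the 5 stromal markers to 9.30 to 9.83 and 6.95 to 7.45 TPM, and each of the other 6 marker lists to at most 2.84 TPM in any library. No read was found for Cd8a, Mcpt8, Epx, Hbb-bt, Hbb-bs, Hba-a1 and Hba-a2. Replicate 2 of M0 stood apart: compared gene by gene on reads, its chi-square divided by degrees of freedom was 10.3 and 11.6 against the other M0 libraries, which gave 2.39 between them, and pairs of M2 libraries gave 1.57 to 1.77. Among the M0 libraries it was the highest for 7 of the 10 genes and the lowest for Srxn1 and Sqstm1. In bulk RNA, fewer cells of a type and less RNA per cell cannot be told apart.

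Promoter sequences were available for 9 of the 10 genes in RefSeq's GRCm38.p6 table (Gclc was not among them), as 11 windows of 300 bases from 250 before to 50 after a transcript start. They were searched on both strands for TGACNNNGC, the core of the antioxidant response element, which 12.4% of all 32851 windows hold. Matches were found in 5 windows, 1 each for Nfe2l2, Gclm, Txnrd1, Srxn1 and Prdx1. The windows of Keap1, Sqstm1, Nqo1 and Slc7a11 held none. DNA outside the windows and other spellings of the element were not searched, and a link between matches and the direction of change was not tested. The stretches are shown as the matches to the element that NRF2 is known to bind. Each is printed on the gene's strand with the match in capitals, and reads GCNNNGTCA where the element lies on the opposite strand.
Nfe2l2, chr2:75704885-75704913, minus strand: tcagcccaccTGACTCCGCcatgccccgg
Gclm, chr3:122245413-122245441, plus strand: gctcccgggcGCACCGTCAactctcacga
Txnrd1, chr10:82859104-82859132, plus strand: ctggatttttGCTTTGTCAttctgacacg
Srxn1, chr2:152105542-152105570, plus strand: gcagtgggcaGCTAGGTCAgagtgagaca
Prdx1, chr4:116685456-116685484, plus strand: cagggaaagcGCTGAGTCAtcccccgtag
The matches start 240, 134, 92 and 133 bases before the transcript start for Nfe2l2, Gclm, Txnrd1 and Prdx1, and at base 29 of the transcript for Srxn1. The Prdx1 match also contains TGACTCA on the opposite strand, the AP-1 site, which 5.20% of all windows hold. The site also occurs outside the matches, in the windows of Prdx1 and Srxn1. A match describes these letters only and is not evidence of binding.

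Slc7a11, which rose under both scalings, is shown for a second element. Its window held 2 matches, 1 on each strand and 11 bases apart, to TTGCATCA, the amino acid response element bound by ATF4, which 0.895% of all windows hold. None of the other members' windows held it. The stretch runs from 76 to 30 bases before the transcript start, with both matches in capitals.
Slc7a11, chr3:50443643-50443689, minus strand: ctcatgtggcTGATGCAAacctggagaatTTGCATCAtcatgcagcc

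Nfe2l2 (transcript NM_010902, mm10 chromosome 2, positions 75675513 to 75704663, 5 exons) had 85.1, 89.8 and 79.9 TPM in M0 replicates 1 to 3 and 74.8, 73.6 and 71.4 TPM in M2. Every M2 library lay below every M0 library with the deposited TPM, and the groups overlapped after median scaling. The means were 84.9 ± 4.98 and 73.3 ± 1.76 TPM (SD, n = 3 each). On log2 of TPM plus 1, the difference was -0.21 (SE 0.05, adjusted p = 0.00501 by limma-trend), and it became -0.038 (95% interval -0.14 to 0.065, adjusted p = 0.499) after median scaling. Nfe2l2 RNA thus moved with the bulk of the table. Over the 6 libraries, 24.9% of 11126 other tested genes had a profile within a root mean square difference of 0.1 of Nfe2l2 on that log2 scale, each centred on its own mean. The nearest were Dop1b, Mms19 and Sec23b, at 0.018, 0.019 and 0.019; genes of the lists used here were left out of this search.

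Keap1, which encodes the adaptor that targets NRF2 for degradation (NM_001110307, chromosome 9, positions 21229730 to 21239332, 6 exons), had 42.5, 42.0 and 40.8 TPM in M0 and 35.4, 35.1 and 34.95 TPM in M2. The groups did not overlap. The log2 difference was -0.24 (SE 0.05, adjusted p = 0.000949), and it became -0.075 (95% interval -0.17 to 0.023, adjusted p = 0.169) after median scaling. An antisense gene, Gm16754, overlaps the Keap1 exons, by 510 bases for its exon with the largest overlap. Since the counting is not stated to use strand, reads of the overlap cannot be told apart. Taken as a ratio within each library, which does not depend on how libraries are scaled, Nfe2l2 stood at 2.002, 2.14 and 1.96 times Keap1 in M0 and 2.12, 2.10 and 2.04 times in M2. These ratios overlapped between the groups and differed by 1.03-fold (exact permutation test, two-sided, p = 0.4, adjusted p = 0.4 over 5 ratios).

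**Figure D1:**
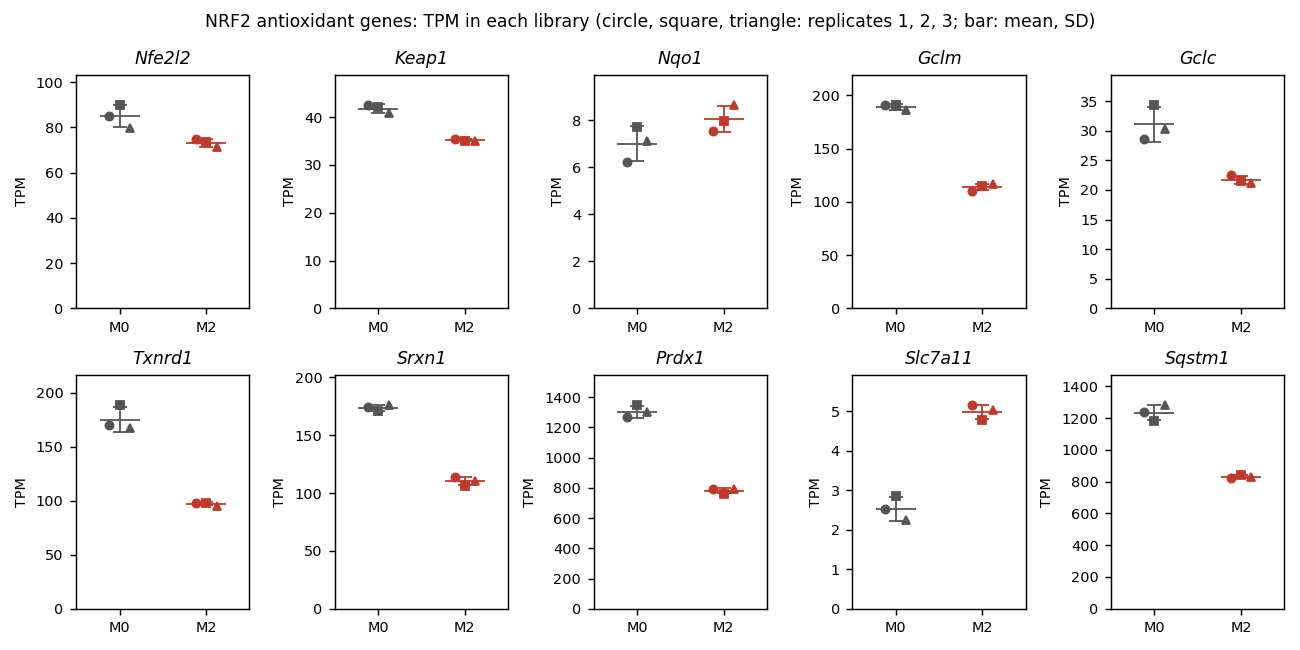
Level of each of the 10 genes in TPM (vertical axis, from 0) in the 3 M0 and 3 M2 libraries. Points are libraries, with replicates 1, 2 and 3 as circle, square and triangle, and bars are mean and SD. The 3 M2 points lie below all M0 points for 8 genes and above them for Slc7a11, while the points of Nqo1 overlap.

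Glutamate-cysteine ligase, the rate-limiting enzyme of glutathione synthesis, consists of a catalytic subunit from Gclc and a modifier subunit from Gclm. Gclm (NM_008129, chromosome 3, positions 122245557 to 122267215, 7 exons) had 190.8, 190.9 and 186 TPM in M0 and 110.5, 115 and 117 TPM in M2. The groups lay far apart, with a log2 difference of -0.73 (SE 0.04, adjusted p = 1.3e-07) and of -0.56 after median scaling (adjusted p = 2.7e-06). Gclc (NM_010295, chromosome 9, positions 77754535 to 77794489, 16 exons) had 28.6, 34.3 and 30.3 TPM in M0 and 22.4, 21.4 and 21.3 TPM in M2. Its M0 libraries scattered more, replicate 2 being the highest, and the M2 libraries were still all lower. The log2 difference was -0.49 (SE 0.07, adjusted p = 0.000131), and -0.33 after median scaling (adjusted p = 0.00132).

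Both subunits fell, and Gclm remained the more abundant transcript per length. The ratio of Gclm to Gclc was 6.67, 5.56 and 6.14 in M0 and 4.92, 5.36 and 5.48 in M2. The groups did not overlap but came close, at 5.56 and 5.48 (1.16-fold lower in M2; exact permutation test, two-sided, p = 0.1, the smallest that 3 libraries against 3 can give, adjusted p = 0.125 over 5 ratios).

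Slc7a11, the light chain of the cystine-glutamate exchanger (NM_011990, chromosome 3, positions 50364936 to 50443613, 12 exons), had 2.52, 2.85 and 2.24 TPM in M0 and 5.145, 4.78 and 5.02 TPM in M2. It was the least abundant of the 10 genes, and every M2 library stood above every M0 library. The means were 2.54 ± 0.304 and 4.98 ± 0.184 TPM, from 295 to 758 reads per library. The log2 difference of 0.76 (SE 0.09, adjusted p = 3.0e-05) is on TPM plus 1, which understates the change of a gene at this level, and it was 0.90 after median scaling (adjusted p = 9.2e-06). Only 5.09% of tested genes had a larger log2 fold change.

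The exchanger needs a heavy chain from Slc3a2, shared with other amino acid transporters, and that gene fell from 251 ± 7.65 to 189 ± 4.66 TPM (log2 difference -0.41, adjusted p = 1.2e-05; -0.23 after median scaling). Slc7a11 was 0.00985, 0.0118 and 0.00881 of the Slc3a2 level in M0 and 0.0271, 0.0248 and 0.0273 in M2. That ratio was 2.62-fold higher in M2 without overlap (exact permutation p = 0.1, the smallest possible, adjusted p = 0.125). Glutathione synthesis thus showed opposite moves along its path, with the importer's light chain higher in M2 and both ligase subunits lower. Gss, the synthetase of the final step, was at 18.7 ± 0.991 and 15.6 ± 1.07 TPM (adjusted p = 0.00857), a fall that did not pass after median scaling (log2 difference -0.087).

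Txnrd1, the cytosolic selenoenzyme that reduces thioredoxin (NM_001042513, chromosome 10, positions 82859206 to 82897724, 15 exons), had 169.8, 188 and 167 TPM in M0 and 98.2, 97.6 and 95.5 TPM in M2. It showed the largest fall of the 10 genes under both scalings, with log2 differences of -0.84 (SE 0.05, adjusted p = 2.4e-07) and -0.67 after median scaling. Its substrate Txn1 fell less, from 312 ± 17.6 to 230 ± 5.77 TPM. The ratio of Txn1 to Txnrd1 was 1.72, 1.69 and 1.94 in M0 and 2.28, 2.37 and 2.46 in M2, higher without overlap (1.33-fold; exact permutation p = 0.1, the smallest possible, adjusted p = 0.125).

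Prdx1, the peroxiredoxin that removes hydrogen peroxide (NM_011034, chromosome 4, positions 116685599 to 116700000, 6 exons), had 1266, 1346 and 1300.1 TPM in M0 and 791, 762 and 794 TPM in M2. It ranked 44 by mean level among the tested genes and fell with a log2 difference of -0.74 (SE 0.04, adjusted p = 5.4e-08; -0.56 after median scaling). Srxn1, the sulfiredoxin that restores overoxidised peroxiredoxins (NM_029688, chromosome 2, positions 152105524 to 152111376, 2 exons), had 175, 170.5 and 176 TPM in M0 and 114, 106 and 110.3 TPM in M2. Its log2 difference was -0.65 (SE 0.04, adjusted p = 3.6e-07; -0.48 after median scaling). Enzyme and repair factor fell nearly in step: Srxn1 was 0.138, 0.127 and 0.135 of the Prdx1 level in M0 and 0.144, 0.140 and 0.139 in M2. The ratio was 1.06-fold higher in M2, without overlap but with the groups close, at 0.138 and 0.139 (exact permutation p = 0.1, the smallest possible, adjusted p = 0.125).

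Sqstm1 encodes p62, the autophagy receptor that also binds KEAP1 and can thereby free NRF2 (NM_011018, chromosome 11, positions 50200152 to 50210820, 8 exons). It had 1239, 1183 and 1280.3 TPM in M0 and 825, 840.1 and 831 TPM in M2. The M0 and M2 libraries were well separated, with a log2 difference of -0.57 (SE 0.04, adjusted p = 4.2e-07; -0.39 after median scaling). Sqstm1 and Prdx1 together made up 77.6% to 78.9% of the summed TPM of the 10 genes, which was 3205 to 3270.0 TPM in M0 and 2064 to 2089 TPM in M2.

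Nqo1, the quinone reductase often used to read NRF2 activity (NM_008706, chromosome 8, positions 107388225 to 107403205, 6 exons), had 6.22, 7.70 and 7.11 TPM in M0 and 7.565, 7.99 and 8.65 TPM in M2. The highest M0 library, replicate 2, lay above the lowest M2 library, and 147 to 219 reads stood behind each value, the fewest of the 10 genes. The log2 difference was 0.18 (95% interval -0.012 to 0.37, adjusted p = 0.0917). It passed after median scaling (0.33, adjusted p = 0.00556), where the groups no longer overlapped, and without M0 replicate 2 (0.24, adjusted p = 0.0233). Under none of the alternatives tried did Nqo1 fall.

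**Figure D2:**
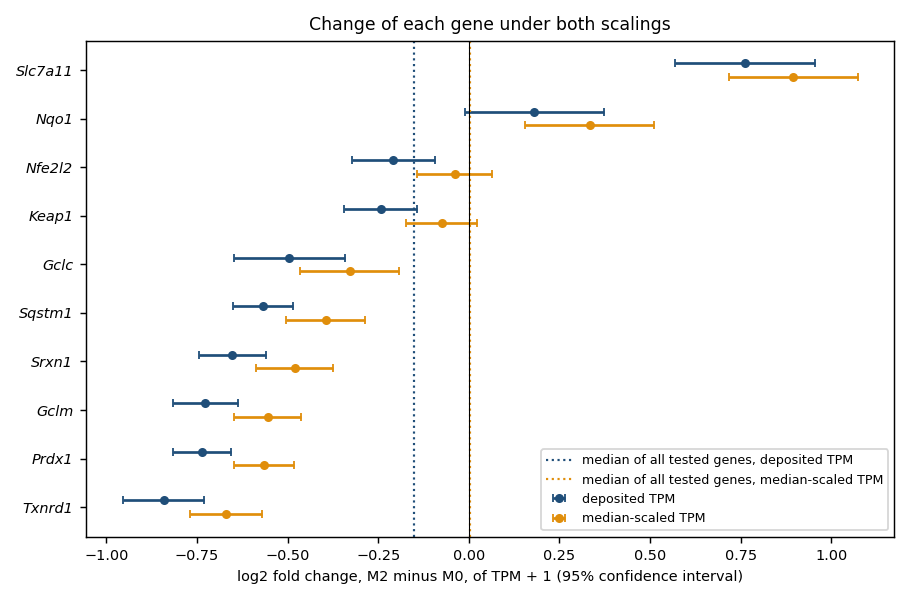
Log2 fold change of TPM plus 1, M2 minus M0 (horizontal axis), with its 95% confidence interval for each of the 10 genes, from the deposited TPM (blue) and after median scaling (orange). Dotted lines mark the median of all 11235 tested genes, at -0.15 and 0.0029; the intervals of 6 genes lie wholly below 0 under both scalings, and Slc7a11 lies above.

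By mean level in M0, per length, the order was Prdx1, Sqstm1, Gclm, Txnrd1, Srxn1, Nfe2l2, Keap1, Gclc, Nqo1 and Slc7a11. Prdx1 and Sqstm1 did not differ beyond their spread there, at 1304 ± 40.1 and 1234 ± 48.7 TPM, nor did Gclm, Txnrd1 and Srxn1 as neighbours, at 189 ± 2.74, 175 ± 11.4 and 174 ± 2.80 TPM. In M2 Sqstm1 stood first, at 832 ± 7.63 against 782 ± 17.9 TPM for Prdx1, and Srxn1 stood above Txnrd1, at 110.1 ± 3.58 against 97.1 ± 1.40 TPM, while Gclm, at 114 ± 3.14 TPM, overlapped Srxn1. The other neighbours in the order did not overlap in either group. Counted as separation of the libraries, M2 was lower without overlap for 8 of the 10 genes and higher for 1, against 49.8% and 19.6% of all tested genes. In the authors' deposited comparison, at an adjusted p under 0.05, 6 of the 10 fell, 2 rose and 2 did not pass. Its log2 fold changes ran from -0.68 for Txnrd1 to 1.13 for Slc7a11, with -0.042 for Nfe2l2. The share of all genes passing by the authors' own p-values is not given here. A limma-trend fit of the authors' log2-scale values called 3323 of 11235 tested genes lower and 3318 higher.

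**Figure D3:**
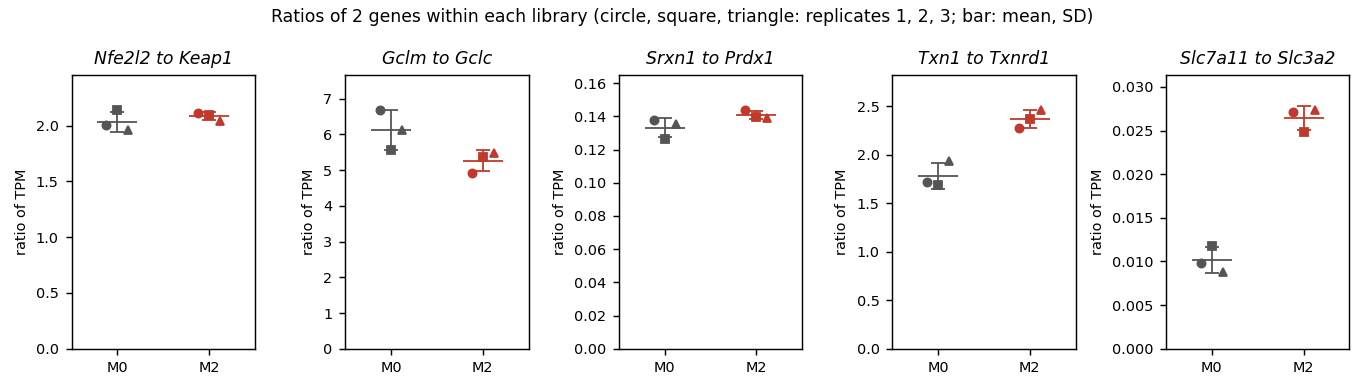
Ratio of the TPM of 2 genes within each library (vertical axes, from 0) for the 3 M0 and 3 M2 libraries, with replicates 1, 2 and 3 as circle, square and triangle and bars for mean and SD. The ratio of Nfe2l2 to Keap1 overlaps between groups, and that of Slc7a11 to Slc3a2 is 2.62-fold higher in M2.

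Another 107 genes of the same redox network were taken from 5 lists, and 95 of them were tested: 47 fell, 20 rose and 28 did not pass, or 38, 33 and 24 after median scaling. Their median log2 fold change was -0.18, close to the -0.15 of all tested genes. Of all tested genes 45.3% fell and 17.7% rose, or 28.2% and 28.8% after median scaling. The median of the 10 NRF2 genes was -0.53, and -0.36 after median scaling.

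Among 13 tested regulators of NRF2, 8 fell, 1 rose and 4 did not pass (5, 3 and 5 after median scaling; median log2 fold change -0.20). The largest change was in Mafg, a small MAF partner of NRF2, which fell from 60.5 ± 1.29 to 32.2 ± 1.37 TPM (log2 difference -0.89). Another partner, Mafk, fell from 21.4 ± 0.436 to 15.2 ± 1.82 TPM. Bach1, the repressor at antioxidant response elements, was the 1 that rose, from 33.1 ± 3.29 to 43.5 ± 1.51 TPM (log2 difference 0.39, adjusted p = 0.000716). Cul3, the scaffold of the ligase that degrades NRF2, fell from 28.5 ± 3.65 to 20.9 ± 0.6004 TPM. These 4 kept their direction and passed after median scaling. The shares of all tested genes were 45.3% lower and 17.7% higher, or 28.2% and 28.8% after median scaling.

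Of 27 tested further NRF2 targets, 14 fell, 6 rose and 7 did not pass, with 13, 12 and 2 after median scaling (median log2 fold change -0.28, and -0.12 scaled). Hmox1, the heme oxygenase, fell from 558 ± 15.4 to 288 ± 6.60 TPM, and Gsta3, a glutathione transferase, from 15.7 ± 1.47 to 7.28 ± 0.605 TPM. Ephx1, the microsomal epoxide hydrolase, rose from 38.2 ± 1.47 to 79.6 ± 2.58 TPM and Mgst1, a microsomal glutathione transferase, from 126 ± 4.14 to 246 ± 2.60 TPM. Gsr fell by 0.92 on the log2 scale. Over all tested genes 45.3% fell and 17.7% rose, and 28.2% and 28.8% after median scaling.

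The glutathione list had 26 tested genes besides the members, of which 10 fell, 9 rose and 7 did not pass (7, 10 and 9 after median scaling). Its median log2 fold change was -0.088 and turned to 0.064 with scaling. For comparison, 45.3% of all tested genes fell and 17.7% rose, or 28.2% and 28.8% after median scaling. Gsr, which regenerates reduced glutathione, fell from 55.6 ± 3.21 to 28.8 ± 0.735 TPM (log2 difference -0.92). Ggt5, a gamma-glutamyl transferase that cleaves glutathione conjugates, rose from 1.59 ± 0.0958 to 4.43 ± 0.347 TPM. Transferase genes with close copies, such as Gstp1 and Gstm1, may share reads and are uncertain.

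In the thioredoxin, peroxiredoxin, superoxide dismutase and catalase list, 11 of 24 tested genes fell, 3 rose and 10 did not pass, or 9, 7 and 8 after median scaling (median -0.091, and 0.080 scaled). The methionine sulfoxide reductases Msrb2 and Msrb1 fell, from 7.97 ± 0.218 to 3.39 ± 0.471 TPM and from 233 ± 14.8 to 136 ± 3.12 TPM. Txnip, the thioredoxin-binding protein, rose from 209.9 ± 6.55 to 413 ± 5.55 TPM. These 3 genes passed under both scalings. Sod3, the extracellular superoxide dismutase, averaged 0.482 ± 0.145 TPM without IL-4 and 1.69 ± 0.220 TPM with it. It is counted among the 3 that rose, but met the filter of 1 TPM through M2 alone, the group where it is high. Beside the counts of this list, 45.3% of all tested genes fell and 17.7% rose, or 28.2% and 28.8% after median scaling.

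Slc7a11 also belongs to the amino acid response driven by ATF4. Whether ATF4 acted on Slc7a11 in these cells was not tested. Of 14 other tested genes of that response, 9 fell and 3 rose, with 2 short of the threshold (9, 4 and 1 after median scaling; median log2 fold change -0.43). Asns, the asparagine synthetase, fell from 39.0 ± 2.60 to 17.2 ± 1.24 TPM, Slc7a5, a neutral amino acid transporter, from 11.3 ± 0.219 to 4.87 ± 0.0867 TPM, and Mthfd2, a mitochondrial folate enzyme, from 35.5 ± 2.76 to 17.1 ± 0.588 TPM. Atf4 itself fell from 151 ± 6.23 to 118 ± 4.58 TPM. Atf3, a stress-induced factor of the same family, rose from 100.6 ± 3.17 to 236 ± 13.9 TPM. Over all tested genes 45.3% fell and 17.7% rose, or 28.2% and 28.8% after median scaling.

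**Figure D4:**
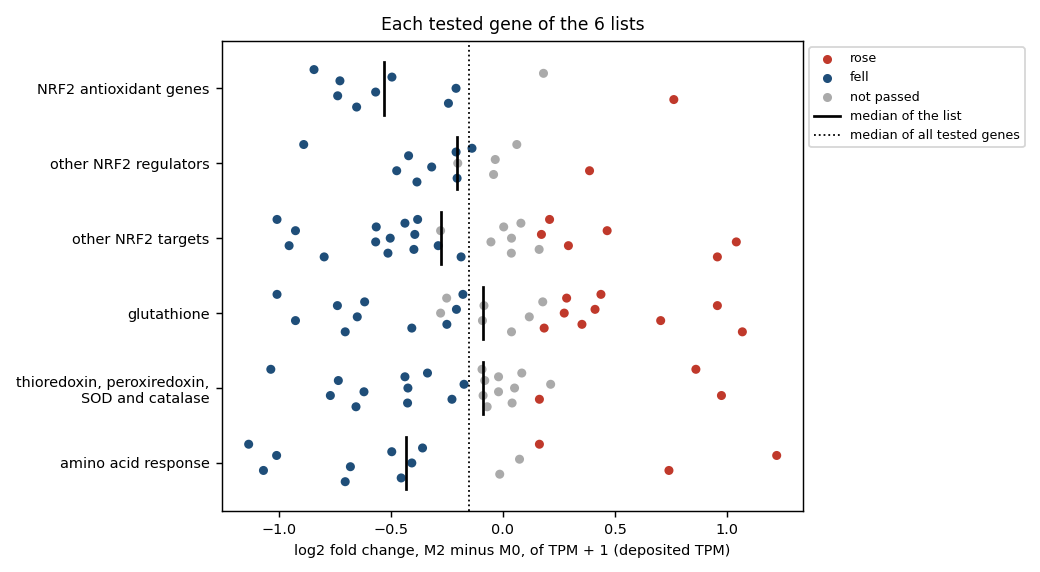
Log2 fold change of TPM plus 1, M2 minus M0, with the deposited TPM (horizontal axis), for each tested gene of 6 lists, coloured by whether it rose, fell or did not pass at an adjusted p under 0.05. Short black lines are list medians and the dotted line the median of all tested genes at -0.15; the 10 NRF2 genes have a median of -0.53, and the medians of the glutathione and thioredoxin lists, -0.088 and -0.091, turn positive after median scaling.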

How the data were processed

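The build was mm10 and the tools named were DESeq2, HOMER 4.11.1, STAR and bcl2fastq, per the submitters' processing notes. Per the file headers, HOMER counted exon reads with 1 transcript kept per gene, and the authors deposited TPM per library. The authors' deposited comparison table holds log2-scale values per library, the log2 fold change and its raw and adjusted p-values. The 2 tables were joined on symbol, since 4515 genes, Keap1 among them, carry different transcripts, and 3 shifted rows were realigned.

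TPM times length gave whole reads within 0.1 read for 99.8% to 99.9% of nonzero values. Groups were compared by limma-trend (limma 3.58.1, R 4.3.3, robust, two-sided) on log2 of TPM plus 1. Tested genes had at least 1 TPM in at least 3 libraries, and p-values were Benjamini-Hochberg adjusted. Simulated data, used as a check, had changes balanced in direction and the same dispersion in all libraries. They did not include the table-wide shift or a library standing apart like M0 replicate 2. Median scaling used median-ratio factors of 0.941 to 1.09. Ratios used an exact permutation test.

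Other genes named are up to 4 per list with the largest change past the threshold, plus a preset set. Members, lists and tests were chosen with earlier results of these data known. Promoters are RefSeq's, in GRCm38.p6; exon numbers are from GENCODE M21.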

Additional observations from a re-analysis of the deposited data

How the results depend on the processing

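Median scaling and the authors' log2-scale values changed calls most. Under them the log2 fold change of Nfe2l2 was -0.038 and -0.039 and that of Keap1 -0.075 and -0.081, none of which passed (adjusted p = 0.499, 0.479, 0.169 and 0.141), while Nqo1 passed at 0.33 and 0.28 (adjusted p = 0.00556 and 0.00737). The members that rose numbered 2 under both, and the other redox genes that rose 33 and 34 against 20. Of all 11235 tested genes, 3234 and 3318 rose under them, against 1983. With a minimum of 5 TPM in 3 libraries, 0 members rose, because Slc7a11 and its 2.24 to 5.145 TPM left the test. In that fit 1632 of 8698 tested genes rose and 4221 fell. Leaving out each library in turn gave 8 members that fell and 1 to 2 that rose, 2 without M0 replicate 2, where Nqo1 passed. Over these fits 4457 to 5239 of 11235 tested genes fell and 1743 to 2217 rose, both highest without M0 replicate 2. Nqo1 ranged from 0.11 to 0.24 over the same fits. The 7 calls of Gclm, Gclc, Txnrd1, Srxn1, Prdx1, Sqstm1 and Slc7a11 held under each alternative in which the gene was tested. Pseudocounts of 0.1 and 5, no filter and limma-voom on recovered reads changed no member's call.

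Replicate numbers are shared between groups, but nothing in the labels pairs them: deviations of same-numbered libraries correlated at 0.0050, -0.0049 and -0.043. With replicate number as a block, 8 members still fell and 1 rose, and over all genes 4963 fell and 1953 rose against 5088 and 1983. Scaling moved the share of falls among all calls from 72.0% to 49.4%. Depth limits Nqo1 and Slc7a11 most.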
